A study of Homo sapiens with 2 samples.

Results

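The miR-34 and miR-449 microRNAs (miRNAs) were examined by small RNA sequencing in MDA-MB-231-IV2-1 cells, which were isolated in mice from the triple-negative breast cancer line MDA-MB-231 and are more metastatic than it. The sample titles give the IV2 subline, while the cell line field of the labels gives MDA-MB-231. The control cells received the scrambled siRNA (N.C), and the knockdown cells received the pooled siRNAs against the long non-coding RNA LOC550643, with RNA extracted 48 h after transfection. There is 1 library for each condition, with no replicate to set a difference against, so no test was made between the conditions. The level of LOC550643 itself was not analysed here. The family was chosen by name, as every mature miRNA called miR-34a, miR-34b, miR-34c, miR-449a, miR-449b or miR-449c, with its knockdown and control values already known from earlier work on these tables. The comparison of the libraries is therefore a description. By this rule 4 of the 425 miRNAs listed in either library were members, namely hsa-miR-34c-5p, hsa-miR-34c-3p, hsa-miR-34b-3p and hsa-miR-34a-5p, and all 4 were listed in both libraries.

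miRNAs are short RNAs that are cut from a hairpin and pair with target transcripts through a seed near their 5′ end. Each hairpin can give a 5p and a 3p product, and usually a single arm dominates. The miR-34 genes are direct targets of the tumour suppressor p53, and the 5p products repress cyclins, cyclin-dependent kinases, MET and BCL2. The miR-449 genes share the same seed family and are best known from cells that grow motile cilia, where the miR-34b/c genes are also active. MDA-MB-231 cells carry mutant p53, which makes the family of interest in this line.

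The family sits at 3 places in the genome (GRCh38, RefSeq coordinates). The MIR34A hairpin lies on the minus strand of chromosome 1 from 9151668 to 9151777, in an exon of its host transcript MIR34AHG. The MIR34B hairpin (111512938 to 111513021) and the MIR34C hairpin (111513439 to 111513515) lie on the plus strand of chromosome 11 with 417 bases between them, and GENCODE 29 places no other gene over them. The miR-449 hairpins span 1822 bases of chromosome 5, in introns of CDC20B on the minus strand.

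The mature sequences show which products can be expected to read the same targets. Of the 4 listed products, 3 had a mature sequence in the RefSeq table, and hsa-miR-34c-5p had none. The listed products with a sequence and the 5p products of the family that share their seeds or genes follow, read 5′ to 3′ with the seed (bases 2 to 8) in capitals.
hsa-miR-34a-5p: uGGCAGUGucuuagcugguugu
hsa-miR-449a: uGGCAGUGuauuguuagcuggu
hsa-miR-449b-5p: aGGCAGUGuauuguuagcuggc
hsa-miR-34b-5p: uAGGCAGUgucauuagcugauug
hsa-miR-449c-5p: uAGGCAGUguauugcuagcggcugu
hsa-miR-34b-3p: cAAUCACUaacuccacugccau
hsa-miR-34c-3p: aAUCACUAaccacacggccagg
In this set, miR-34a-5p shares its seed with miR-449a and miR-449b-5p, and miR-34b-5p shares its own with miR-449c-5p, in which the shared letters begin 1 base later. The 3p products of the miR-34b/c cluster carry other seeds. Aligned with a shift of 1 base, miR-34b-3p and miR-34c-3p are identical at 17 positions, against 16 for miR-34b-3p and miR-34a-3p without a shift. Of the 425 listed miRNAs 350 had a sequence, and among these miR-2682-5p was the only one outside the family with a family seed, at 10.6 RPM in control cells and 8.14 RPM in knockdown cells.

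The deposited values are reads per 1000000 reads on miRNAs (RPM), and thus shares of all miRNA reads. A higher value may come from more cells that make a miRNA, from more of it per cell, or from a fall of other miRNAs. These cannot be told apart in bulk RNA. From the spacing of the low values, 1 read was worth 5.29 RPM for the control and 2.03 RPM for the knockdown, which puts the depth at about 189034 and 491541 reads. The knockdown library is thus 2.60 times deeper. All 4 members had whole numbers of reads in both libraries, within 0.1 read. A value of 3 reads or fewer was treated as lying at the floor, which is 15.9 RPM for the control and 6.10 RPM for the knockdown. The intervals below are exact 95% intervals of the reads, and they cover counting error only, since reads amplified by PCR are not independent molecules and the variation between cultures is not in them.

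In both libraries miR-34c-5p held nearly all reads of the family, and it was the only member whose counting intervals lay apart between them. It was listed at 1143 RPM in control cells (216 reads, interval 995 to 1306 RPM), against 3057 RPM in knockdown cells (1503 reads, interval 2905 to 3216 RPM). These intervals do not overlap, and the knockdown value is 2.68-fold higher (interval 2.32 to 3.10), a log2 fold change of 1.42 on the log2(RPM + 1) scale. At the depth of the control library, the knockdown reads would correspond to 578 reads in place of the 216 observed. Among all miRNAs miR-34c-5p moved from the 50th to the 23rd place by RPM. Its share of all miRNA reads went from 0.114% to 0.306%.

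**Figure D1:**
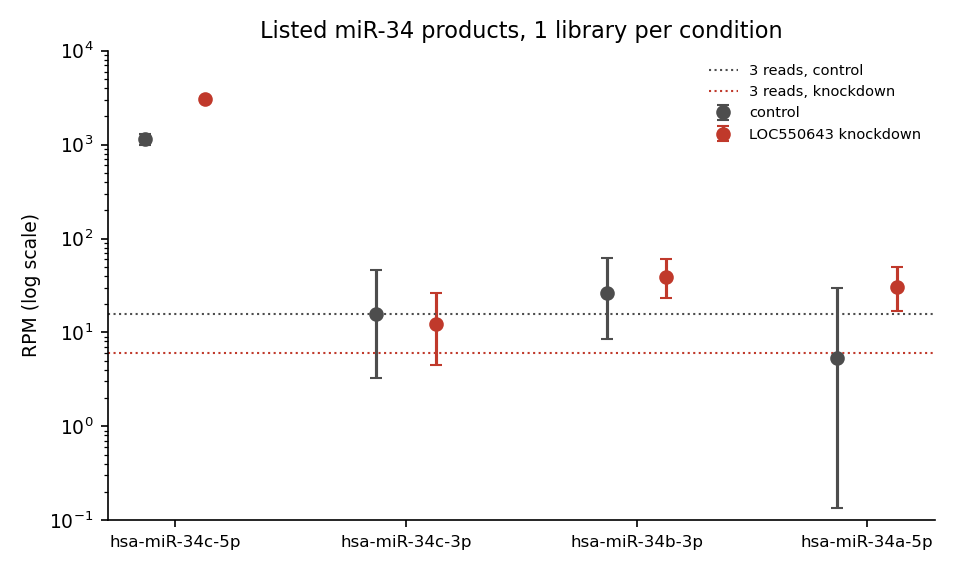
RPM (log axis) of the 4 listed miR-34 products in the libraries of control cells (grey) and LOC550643 knockdown cells (red), with exact 95% counting intervals as bars and the 3-read floor of each library as a dotted line. The intervals of miR-34c-5p, at 1143 and 3057 RPM, are apart, and those of the other products overlap.

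The other arm of the same hairpin, miR-34c-3p, was rare. In control cells it was listed at 15.9 RPM (3 reads, interval 3.27 to 46.4 RPM), against 12.2 RPM in knockdown cells (6 reads, interval 4.48 to 26.6 RPM). The control value lies at the floor, and the ratio of 0.769 has an interval of 0.164 to 4.75. A difference in either direction was not detectable at this depth.

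From the neighbouring hairpin, miR-34b-3p was listed at 26.4 RPM in control cells (5 reads, interval 8.59 to 61.7 RPM). In the knockdown library it stood at 38.6 RPM (19 reads, interval 23.3 to 60.4 RPM). The ratio of 1.46 has an interval of 0.528 to 5.01, which includes both no change and the ratio of miR-34c-5p. The opposite arm, miR-34b-5p, was listed in neither library.

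The separate miR-34a locus gave the fewest reads of the miR-34 genes in control cells. There miR-34a-5p was listed at 5.29 RPM (1 read, interval 0.134 to 29.5 RPM), and in knockdown cells it was at 30.5 RPM (15 reads, interval 17.1 to 50.3 RPM). The ratio of 5.77 has an interval of 0.888 to 243, so at this scaling the reads allow no change as well as a large increase. Under median-of-ratios and 75th-percentile scaling the lower end of the interval was 1.02 and 1.01, just above no change. At the control depth the 15 reads would be 5.77 reads. Among the 59 miRNAs with 1 control read and at least 1 knockdown read, 3 had 15 or more knockdown reads. These were miR-34a-5p and, named after their values were seen, miR-125a-3p with 17 reads and miR-4792 with 15 reads. The opposite arm, miR-34a-3p, was not listed.

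No product of the miR-449 cluster was listed in either library. A missing miRNA was taken as 0 reads, for which the exact 95% interval reaches up to 19.5 RPM in control cells and 7.50 RPM in knockdown cells. The intervals of miR-34c-5p, from 995 and 2905 RPM upward, lie far above these limits.

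The loci were then set side by side. The 3 listed products of the miR-34b/c cluster summed to 1185 RPM (224 reads) in control cells and 3108 RPM (1528 reads) in knockdown cells, a ratio of 2.62 (interval 2.28 to 3.03). Of these sums miR-34c-5p made up 96.4% and 98.4%. The level of miR-34c-5p was 100.2 times that of miR-34a-5p in knockdown cells (interval 60.6 to 180 from the reads). For control cells the ratio of 216 rests on 1 read of miR-34a-5p, under the floor, and its interval runs from 38.4 to 8571. The order of the family in control cells was miR-34c-5p, miR-34b-3p, miR-34c-3p and miR-34a-5p, in which the last 3 have overlapping intervals. In the knockdown library miR-34c-3p came last, and the intervals of neighbours below miR-34c-5p overlapped again. Levels of different miRNAs in a library also depend on how well each is captured during adapter ligation, which was not tested.

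Whether the members changed by different amounts was examined through ratios within a library, which do not depend on the scaling between libraries. The change of miR-34c-5p was 1.83 times that of miR-34b-3p, with an exact conditional interval of 0.529 to 5.14. The change of miR-34a-5p was 2.16 times that of miR-34c-5p (interval 0.328 to 91.2). Each of these intervals includes 1, so the reads show neither that the locus of miR-34a and the miR-34b/c cluster changed alike nor that they changed differently.

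**Figure D2:**
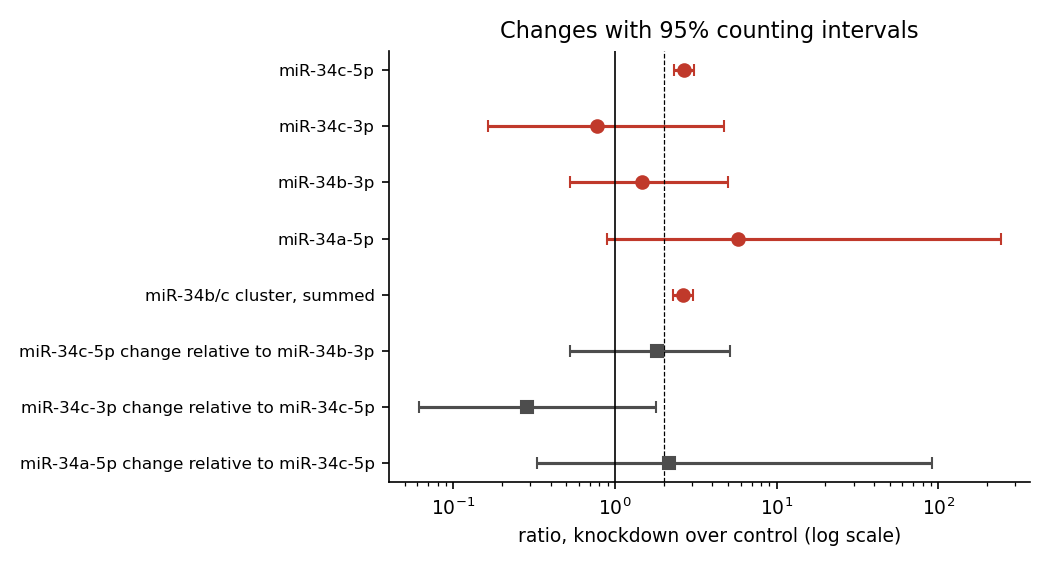
Ratio of the knockdown to the control library (log axis) for each listed product and for the summed miR-34b/c cluster (red circles), and ratios of 2 such changes (grey squares), with 95% counting intervals; the solid line marks a ratio of 1 and the dashed line 2. The intervals of miR-34c-5p (2.32 to 3.10) and of the cluster sum (2.28 to 3.03) lie above 2, and all others include 1 at the scaling shown.

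Beside the rest of the table, 2 of the 4 members, miR-34c-5p and miR-34a-5p, were more than 2-fold higher in knockdown cells on the log2(RPM + 1) scale, against 76 of all 425 miRNAs (17.9%). The median log2 fold change of the members was 0.97, beside -0.20 for all miRNAs. With values at or under 3 reads set to the floor, the log2 fold change of miR-34a-5p was 0.90 and no longer past 2-fold. Since the family was picked with these values known, nothing is read from these counts. Past a mean of 100 RPM there were 124 miRNAs, of which 3 exceeded a 2-fold increase (2.42%), and miR-34c-5p, the only member at that level, was the second of them. A ratio whose interval lay above 1 was found for 25 of 325 miRNAs with reads in both libraries (7.69%), and for 1 of the 4 members, miR-34c-5p. An interval below 1 was found for 52 of the 325 (16.0%) and for none of the members. This split depends on the scaling, with 51 above and 35 below 1 under median-of-ratios scaling, where 2 of the 4 members, miR-34c-5p and miR-34a-5p, were above 1. At the 2-fold line of the abundant miRNAs, miR-381-3p was just inside (log2 fold change 1.18) and miR-3615 just outside (0.87).

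**Figure D3:**
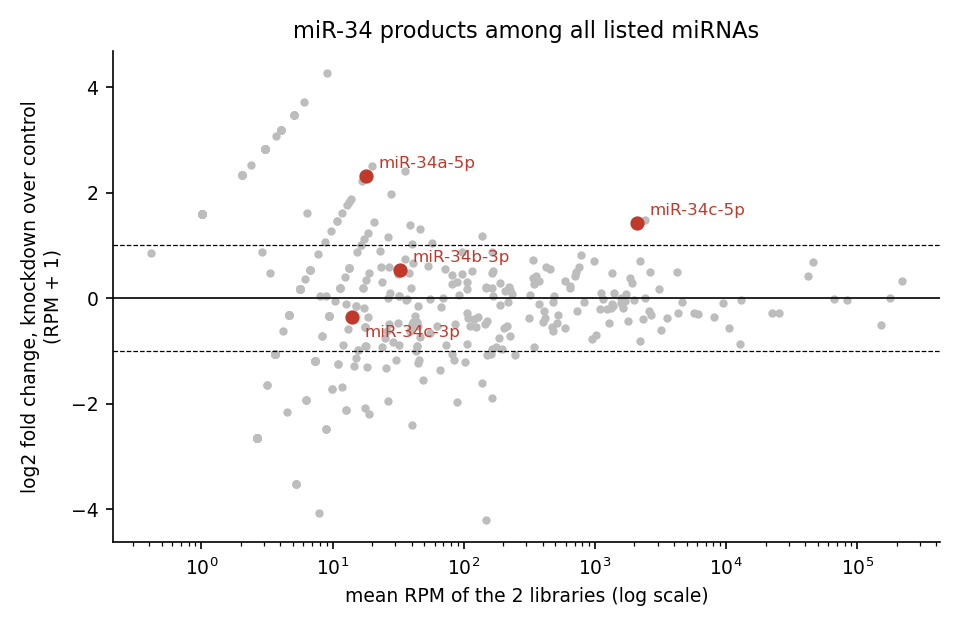
Log2 fold change of the knockdown over the control library (RPM + 1) against the mean RPM of the libraries (log axis) for the 425 listed miRNAs, with the miR-34 products in red and dashed lines at 2-fold. At about 2100 RPM miR-34c-5p lies above the 2-fold line, where few other miRNAs of that level are, while the other 3 products lie in the widely scattered low range.

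The 3 miRNAs nearest to miR-34c-5p in control level differed less between the conditions. Its nearest neighbours in control cells were miR-99a-5p, miR-99b-3p and miR-25-3p. Of these miR-99a-5p was at 1153 RPM in the control and 1133 RPM in knockdown cells. The values of miR-99b-3p were 1127 and 1558 RPM, and those of miR-25-3p were 1164 and 1015 RPM. Nearest in log2 fold change among the 124 abundant miRNAs were miR-27a-5p (1.48), which also stood at a similar control level (1280 RPM, interval 1124 to 1452 RPM), miR-381-3p (1.18) and miR-3615 (0.87), a likeness that rests on 1 difference between 2 libraries. By the gain in RPM, 1915 RPM, miR-34c-5p was the fifth of all miRNAs, and the 3 that gained most, at 35085 to 195101 RPM, were far more abundant in control cells.

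The use of the miR-34c arms was compared next. The 3p arm made up 1.37% of the miR-34c reads in control cells (3 of 219 reads, exact interval 0.283% to 3.95%) and 0.398% in knockdown cells (6 of 1509 reads, 0.146% to 0.863%). Relative to miR-34c-5p, miR-34c-3p was 0.287 times as abundant in knockdown cells as in the control, with an interval of 0.0609 to 1.79 that includes 1. A change in the use of the arms was therefore not detectable. Among the hairpins with both arms listed and at least 100 RPM in sum, which numbered 55 in each library, the less abundant arm made up a median of 2.31% in control cells and 1.62% in knockdown cells. A smaller share than that of miR-34c was found in 20 and 12 of them. Hairpins with an arm that was not listed are left out, some of them abundant, so these figures do not cover all hairpins. The 55 were not all the same hairpins in the control and the knockdown library.

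**Figure D4:**
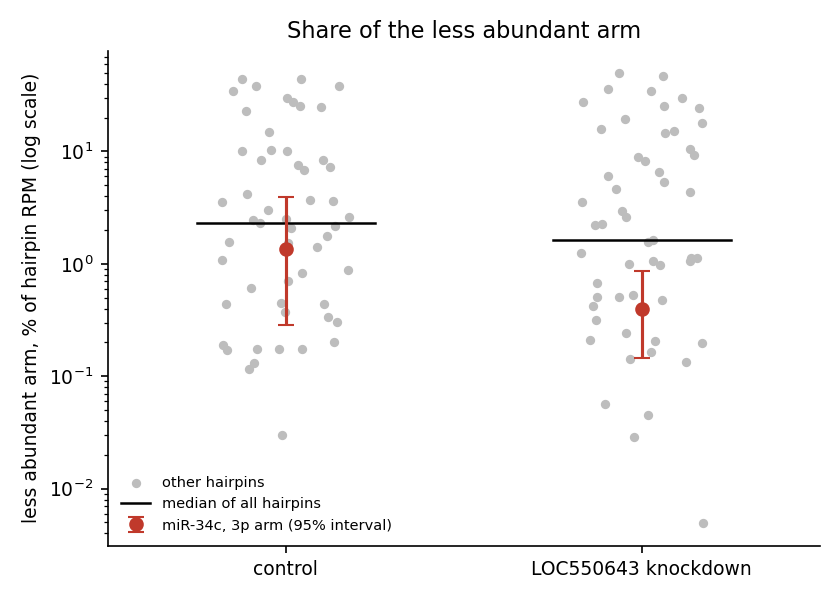
Share of the less abundant arm (percent of the RPM of both arms, log axis) for hairpins with both arms listed and at least 100 RPM, by library, with miR-34c in red with its 95% interval and the median as a line. The 3p arm of miR-34c, at 1.37% and 0.398%, lies below the median of each library and within the range of the other hairpins.

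The products of the paired genes were far from equal in level although their hairpins are close together. Summed over the listed arms, miR-34c was 43.8 times miR-34b in control cells and 79.4 times in knockdown cells. The miR-34b sum holds the 3p arm alone and rests on 5 reads in the control library. Neighbouring hairpins on the same strand within 1000 bases of each other were paired by name. This gave 23 pairs with both hairpins listed in both libraries. The set is not complete, since miR-29a with miR-29b-1 and miR-183 with miR-96 are not in it. Over the 23 pairs, the median ratio of the higher to the lower member was 4.67 in control cells and 4.70 in knockdown cells. Within this set, 1 pair had a larger ratio than miR-34b and miR-34c in each library. It was MIR27B and MIR24-1 in both, whose miR-24-1 sum holds the 5p arm alone. The sums of MIR16-1, MIR16-2 and MIR24-2 also lack the arm whose name gives no locus, and the medians include their pairs. These pairs share libraries and some hairpins, and the ratios are a description.

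The study names miR-34b-3p among the miRNAs that LOC550643 could sponge, chosen by predicted binding and the small RNA profiles of the knockdown. It proposes that the knockdown raises the abundance of such miRNAs. It then compared several of them, miR-34b-3p included, between breast cancer and normal tissue. It followed up miR-125b-2-3p, the only one it reports as significantly lower in the cancer tissue. For miR-34b-3p the ratio between the libraries was 1.46, with an interval of 0.528 to 5.01 that includes no change. Because of the predicted binding, matches of the family products with a sequence, hence not of miR-34c-5p, to the LOC550643 isoforms were located. The isoform sequences are those given by the study, V1 with 718 bases, V2 with 581 and V3 with 476. The reverse complement of bases 1 to 8 of miR-34b-3p occurs once in V1, at bases 338 to 345, and once in V3, at bases 96 to 103. In GRCh38 this is chromosome X from 56732069 to 56732076, in exon 2 of the gene, called NBDY in GENCODE 29. Isoform V2 lacks exon 2 and has no match to its seed. A match to bases 1 to 8 in V1 was present for 6 of the 350 listed miRNAs with a sequence (1.71%), and a match to bases 2 to 8 for 21 of the 350.

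The same place holds a shorter match for miR-34c-3p. The reverse complement of its bases 2 to 7 occurs at bases 338 to 343 of V1, as for 58 of the 350 miRNAs in V1 (16.6%), but that of bases 2 to 8 does not occur. For miR-34a-5p, miR-449a and miR-449b-5p no isoform holds a match to bases 2 to 7, and for miR-34b-5p and miR-449c-5p, which were not listed, there is a 6-base match at 176 to 181 of V1 and V2. A match is a statement about letters and not a binding site.

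The miR-34b-3p match lies inside the target of a siRNA that was used for the knockdown. The siRNA si-LOC550643#301 covers bases 329 to 346 of V1, across the junction of exons 1 and 2, and like the match it is missing from V2. Its strand complementary to LOC550643 therefore carries the first 8 bases of miR-34b-3p, at its own bases 2 to 9, and the first 7 bases of miR-34c-3p, at its bases 3 to 9. The sequences are shown to make this visible, with the 8 shared or complementary bases in capitals (7 for miR-34c-3p).
LOC550643 V1, bases 323 to 352: ctaaaccagtctttgAGTGATTGcagtatg
si-LOC550643#301: cagucuuugAGUGAUUGc
si-LOC550643#301, reverse complement: gCAAUCACUcaaagacug
hsa-miR-34b-3p: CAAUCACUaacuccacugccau
hsa-miR-34c-3p: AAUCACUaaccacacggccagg
Of the 350 miRNAs with a sequence, 2 share a run of 8 or more bases with this strand, miR-34b-3p and miR-548u. The run of miR-548u is its first 9 bases, seed included, and lies at bases 10 to 18 of the strand. The siRNA si-LOC550643#543 targets exon 3 in all isoforms. Its complementary strand shares no run of 8 bases with any of the 350 miRNAs, and its other strand shares one with 2 of them. One strand of the scrambled siRNA shares a run of 8 bases with 1 of them, miR-330-5p, away from its seed. Neither strand of the scrambled siRNA shares a run of more than 6 bases with the 3 miR-34 products that have a sequence. Beside this, the values of miR-34b-3p (26.4 and 38.6 RPM) and miR-34c-3p (15.9 and 12.2 RPM) differed by less than their counting error, and a part of the shared bases in either value was not tested.

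**Figure D5:**
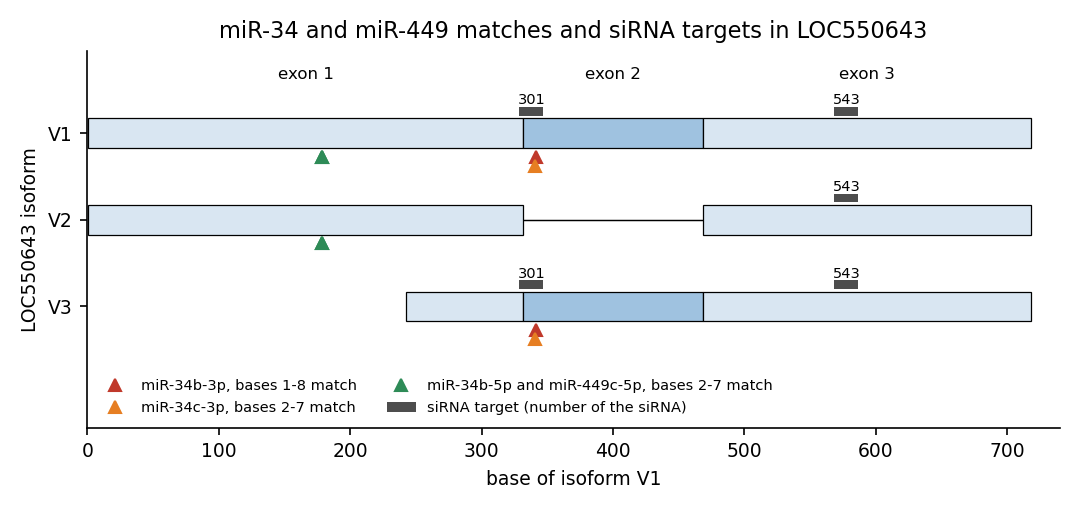
LOC550643 isoforms V1, V2 and V3 drawn to scale along the bases of V1, with exons as boxes, siRNA targets as grey bars with their numbers, and triangles at matches to the reverse complement of miR-34 and miR-449 products. The match of miR-34b-3p at bases 338 to 345 lies within the target of si-LOC550643#301 (329 to 346) in V1 and V3 and is missing from V2, and the match at 176 to 181 belongs to products that were not listed.

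Other miRNAs linked to p53 were described for context. Of 20 named miRNAs that p53 is known to induce, process or answer to, 17 were listed, with 23 products. In knockdown cells 3 of the 23 were higher by more than 2-fold, beside 17.9% of all miRNAs, and 4 were lower by more than 2-fold, beside 116 of all 425 (27.3%). Their median log2 fold change was 0.20, beside -0.20 for all miRNAs. Among the 11 products with more than 3 reads in both libraries, none was more than 2-fold higher, and 1 was more than 2-fold lower, miR-16-5p, a repressor of cyclins, with 143 and 61.0 RPM. In this group the interval lay above 1 for miR-143-3p (35085 and 56408 RPM) and miR-192-5p (600.4 and 913 RPM), and below 1 for miR-16-5p and miR-23b-3p (1492 and 1070 RPM). Outside this group, only miR-149-5p had an interval without 1, with a ratio of 4.23 (interval 1.04 to 37.1). It had 2 control reads, at the floor, and 22 knockdown reads. Under median-of-ratios or 75th-percentile scaling, 4 of the 11 lay above 1 and 2 below.

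The labelled cell type was checked against marker miRNAs. The epithelial miR-200 family and miR-205 were nearly missing, with 3 of 6 names listed and a sum of 10.6 RPM in the control and 10.2 RPM in knockdown cells. Names typical of mesenchymal or basal-like breast cancer lines (miR-100, miR-221, miR-222, miR-146a, miR-155 and miR-31) were all listed, with sums of 191789 and 136880 RPM. Most of both sums was miR-100-5p, at 176487 and 123748 RPM, while miR-155-5p (3 control reads) and miR-31-5p (1 and 3 reads) were at or near the floor. Of the 5 ciliated-cell names, the miR-449 genes, miR-34b and miR-34c, only the last pair was listed, with the sums given above. The blood-cell markers miR-451a, miR-142, miR-223 and miR-144 and the liver marker miR-122 were not listed, while miR-486 summed to 84.6 and 95.6 RPM. Of the 3 muscle names, miR-133a was not listed, and miR-1 and miR-206 summed to 52.9 and 42.7 RPM. The control sum was miR-206 alone, since miR-1 had 0 control reads and 3 knockdown reads. Of the 2 neuronal names, miR-124 was not listed, and miR-9 summed to 175 and 120.0 RPM.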

How the data were processed

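Small RNA of MDA-MB-231-IV2-1 cells was sequenced by the authors on a MiSeq after preparation with a NEBNext small RNA kit, 1 library per condition, and the reads were assigned to mature miRNAs with their own tool. The submitters' processing notes name FastQC, cutadapt and hg38, while the aligner and the miRNA release are not given in the sources used here. The deposited values are RPM, reads per 1000000 miRNA reads, and miRNAs at 0 are not listed. They sum to 999996 and 999845.

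Here each column was brought to a sum of 1000000, missing miRNAs were set to 0, and log2 fold changes were taken with a pseudocount of 1 RPM, which understates changes of rare miRNAs. The RPM of 1 read was estimated from values up to 20 reads, of which 92.9% and 91.5% were whole within 0.1 read, the others being fractions of a read. For this reason no p-value was taken from the counts. The intervals use reads rounded to whole numbers, also for miRNAs whose values were not whole, such as miR-143-3p and miR-192-5p. Counts of miRNAs with an interval above or below 1 rest on these rounded reads and on counting error only. Intervals are Clopper-Pearson intervals, and those comparing the changes of 2 products come from the conditional odds ratio (scipy 1.17.1). Arms and pairs were matched by name. Mature sequences are from RefSeq (GRCh38.p14), which matched 350 of 425 names by exact spelling. Exons are from GENCODE 29, in which the transcript starting with V1 was used. The procedure was tested on simulated data. Python 3.11.15 and matplotlib 3.10.9 were used. The members, lists and tests were chosen with earlier results of these data known. Named miRNAs are the members, listed miRNAs sharing a family seed, the 3 nearest to miR-34c-5p in control RPM and in log2 fold change, and p53-linked miRNAs above 3 reads in both libraries. Marker miRNAs are named as lists. The hairpin pair of largest ratio, hairpins summed over 1 arm and pairs missing from the set were named beside this rule. The same holds for miRNAs that share a run with a siRNA strand. So were miRNAs at the 2-fold line, those with as many reads as miR-34a-5p, and miR-149-5p. All of these were named after their values were seen. The name of miR-125b-2-3p is given because the study followed it up. Alternatives covered the scaling, the pseudocount, the floor, the fold threshold and filters on low values.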

Additional observations from a re-analysis of the deposited data

How the results depend on the processing

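The log2 fold change of miR-34c-5p lay between 1.41 and 1.62 over 6 alternatives of scaling, pseudocount and floor, that of the summed miR-34b/c products between 1.38 and 1.59, and that of miR-34b-3p between 0.42 and 0.72. For miR-34c-3p it lay between -0.38 and -0.17. All stayed within their counting intervals and kept their sign. The alternatives for miR-34a-5p were added after seeing the data: its log2 fold change of 2.32 was 1.41 with a pseudocount of 10 RPM and 0.90, under 2-fold, with values at or under 3 reads set to the floor. Median-of-ratios and 75th-percentile scaling raised every log2 ratio by 0.20 and 0.19, and 48.0% and 47.4% of the calls beyond 2-fold were then higher, against 39.6%. The same scalings, added for this count after seeing the data, gave 51 and 49 miRNAs with an interval above 1, against 25, and 35 and 37 below 1, against 52. Counts of miRNAs past 2-fold in all, 76 up and 116 down, fell to 19 and 25 under a pseudocount of 10 RPM. They were 28 and 66 where both libraries listed the miRNA, 34 and 51 above a minimum of 10 RPM in either, and 3 and 7 above a mean of 100 RPM, for which fewer miRNAs entered. No paired analysis was possible because there was a single library per condition, so none could be left out either. Depth limits miR-34a-5p, miR-34b-3p and miR-34c-3p, which have 1 to 5 reads in the control library.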
